A study of Mus musculus with 12 samples.

Results

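Embryonic stem cells (ESC) were set against all cells and tissue of the mouse epiblast after implantation, to describe which autosomal genes were lower or higher in every later group, in culture and in the embryo alike. Gene expression was measured on 12 microarrays, all of which enter this comparison, in 6 groups of 2 arrays. EpiSC were lines derived at embryonic day (E) 5.75 and kept with 12 ng/ml FGF2, 20 ng/ml Activin A and 20% serum replacement (KSR). The rsEpiSC lines, derived at E5.75 or E6.5, were kept with 2.5 µM IWR1, an inhibitor of the Wnt pathway, and with 20 ng/ml of a factor whose name the labels leave out. Epiblast tissue came from embryos of E5.75 and of E6.5. ESC were derived at E3.5 and kept with LIF, the GSK3 inhibitor CHIR99021 at 3 µM and the MEK inhibitor PD0325901 at 1 µM. All lines grew in N2B27 medium on feeder layers of mouse embryonic fibroblasts (MEFs), which the tissue did not have. The labels give all groups an OCT4-deltaPE-GFP reporter crossed to a C57BL strain, but the strain and passage entries count up from array to array and were not used. Each line is a model of its stage and its medium together: the stage of the ESC and the inhibitors in their medium cannot be told apart.

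Implantation divides 2 states of pluripotency. Naive cells of the blastocyst, which ESC represent, rest on LIF/STAT3 signalling and on a network of factors such as Klf4, Tfcp2l1, Esrrb and Tbx3. The epiblast after implantation, and the primed lines made from it, keep Pou5f1 and Sox2, turn on genes such as Otx2 and Fgf5 and methylate their DNA again. EpiSC depend on FGF and Activin, and the labels name Activin A for EpiSC only, not for rsEpiSC. Primed lines such as EpiSC are known for losing naive genes, and reporters of the distal enhancer of Oct4 mark naive cells.

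The post-implantation value of a gene was the mean of its 5 group means, and a difference is that value minus the ESC mean on the log2 scale, so that 1 is a 2-fold change and a negative value is a loss. Differences are given ± the standard error of the fit. A gene passed at an adjusted p under 0.05 in limma. Of 21204 autosomal genes, 2611 passed (12.3%), 1159 higher (5.47%) and 1452 lower (6.85%), and the median difference of all autosomal genes was 0.09. A gene was called lost or gained in all 5 groups where it passed, where each of the 5 group means was at least 2-fold below or above ESC, and where no post-implantation array overlapped an ESC array. By this rule 345 genes were lost (1.63% of autosomal genes) and 148 were gained (0.698%), 493 together (2.33%). The same values chose these genes, so their sizes are a description. The ESC arrays weigh on every count: without ESC replicate 2 the test passed 1463 genes, 495 of them higher and 66.2% lower (55.6% with all arrays), and without ESC replicate 1 307 genes were gained in all 5 groups. Of the 493 genes, 276 lost and 129 gained remained without ESC replicate 1, and 290 and 112 without ESC replicate 2. Of the named genes that passed, Tet1, Apcdd1, Dcn and Snai1 did not pass without ESC replicate 1, and Pfkm, Cox4i1, Atp5b, Nnat, Amn and Eomes passed with neither ESC array left out. Dnmt3b, Ddit4l, Myc, Egr1, Ccnd1, Acvr1b, Ldhb, Dab2, Apoe, Mesp2, Cdx1, Lhx5 and Dmc1 did not pass without ESC replicate 2. Ddit4l, Apcdd1, Atp5b, Ccnd1, Ldhb, Cox4i1 and Cdx1 also failed without 1 or more of the later arrays. A passing mean of 5 groups need not hold in culture and tissue alike. In the 3 cultured groups alone Dnmt3b, Ddit4l, Myc, Apcdd1, Acvr1b, Slc2a3, Pfkm, Uqcrc1, Cox4i1, Atp5b, Nnat, Dcn, Apoe, Amn and Eomes did not pass, and in the 2 tissue groups alone Rpl10l, Dppa3, Tet1, Egr1, Ccnd1, Lifr, Col1a2, Cnn1, Tagln, Cdx1, Lhx5 and Dmc1 did not pass. Beside the genes marked so where they stand, Fbxo15, Fgf4, 2210409E12Rik, Dmc1, Pou3f1 and Sfrp2 were named after their values were seen. No label gives replicates as separate cultures or embryos, so the p-values reflect the spread of these samples alone, which could be technical. Precision is limited by how few arrays there are.

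The median difference was -2.23 over the lost genes and 2.00 over the gained genes. The smallest of the 5 group differences reached 4-fold in 114 lost genes and 25 gained genes, and a log2 difference of 4 in 15 lost genes and 0 gained genes. The median of the lost genes was -2.02 in EpiSC, -2.37 in E5.75 rsEpiSC, -2.42 in E6.5 rsEpiSC, -2.16 in E5.75 epiblast and -2.28 in E6.5 epiblast. For the gained genes it was 1.67, 2.06, 2.09, 1.87 and 2.17 in the same order of groups. These 5 differences share the ESC arrays. When each was tested on its own, 267 of the lost and 112 of the gained genes passed in all 5. Named members that did not pass were Pou5f1, Dusp6, Plagl1 and Cdh2 in EpiSC, Cmtm6 in EpiSC and E5.75 rsEpiSC, and Plpp3 in E5.75 rsEpiSC. In tissue they were Slc38a4 at E6.5, Zfp936 at E5.75, and Zfp992, Dmc1 and Col1a2 at E5.75 and E6.5. Col1a2 did not pass in E6.5 rsEpiSC either. The share of all autosomal genes that passed was 6.28% for EpiSC (3.6% higher, 2.68% lower), 10.2% for E5.75 rsEpiSC (5.43% and 4.79%), 8.85% for E6.5 rsEpiSC (4.34% and 4.51%), 21.4% for E5.75 epiblast (10.5% and 11%) and 19.5% for E6.5 epiblast (9.62% and 9.88%). The lost genes had a median log2 signal of 4.61 after implantation, against 7.23 in ESC. For 42 of them all 10 post-implantation arrays lay below the median of the whole table, 4.21, where RMA signal has no zero and a fold understates the change. The gained genes had a median of 7.05 after implantation, against 4.83 in ESC. Of the lost genes 320 code for protein and 17 are annotated as lncRNA, and of the gained genes 145 and 2. Just inside the size limit were Pigl, Dpp4 and L3mbtl2 among the lost (smallest differences 1.000, 1.003 and 1.004) and Nbn, Ptpn13 and Vash2 among the gained (1.001, 1.011 and 1.019). Just outside were Myo1e, Scarna2 and Tfap2a (0.998, 0.996 and 0.995) and Katnal2, Gria4 and 6330403K07Rik (0.999, 0.996 and 0.994).

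Among the named genes lost furthest in every group were naive transcription factors. Tbx3, a T-box factor of the naive network, had log2 signals of 4.41 and 4.51 in EpiSC, 4.37 and 4.33 in E5.75 rsEpiSC, 4.48 and 4.40 in E6.5 rsEpiSC, 4.09 and 4.82 in E5.75 epiblast and 4.73 and 4.68 in E6.5 epiblast, against 9.90 and 10.41 in ESC. All 10 later arrays lay within 1 log2 unit of each other and far below ESC, and the difference was -5.67 ± 0.22 (adjusted p = 6.52e-08). Klf4, a Krüppel-like factor of the naive network and of reprogramming, had 5.34 and 5.19 in EpiSC, 4.80 and 4.52 in E5.75 rsEpiSC, 4.68 and 4.94 in E6.5 rsEpiSC, 5.27 and 4.72 in E5.75 epiblast and 5.06 and 4.83 in E6.5 epiblast, against 9.39 and 9.56 in ESC. It fell by 4.54 ± 0.21 (adjusted p = 1.44e-07). Tfcp2l1, a target of STAT3, lay between 3.23 and 5.38 on the later arrays, with both EpiSC arrays (5.38 and 4.58) at the top, against 9.34 and 9.61 in ESC (-5.45 ± 0.23). Esrrb, an orphan nuclear receptor, was also lost in every group but was not among the 12 lost furthest (smallest difference 2.13). It lay between 3.56 and 4.75 on the later arrays, against 6.62 and 6.80 in ESC (-2.59 ± 0.24, adjusted p = 2.43e-05).

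**Figure D1:**
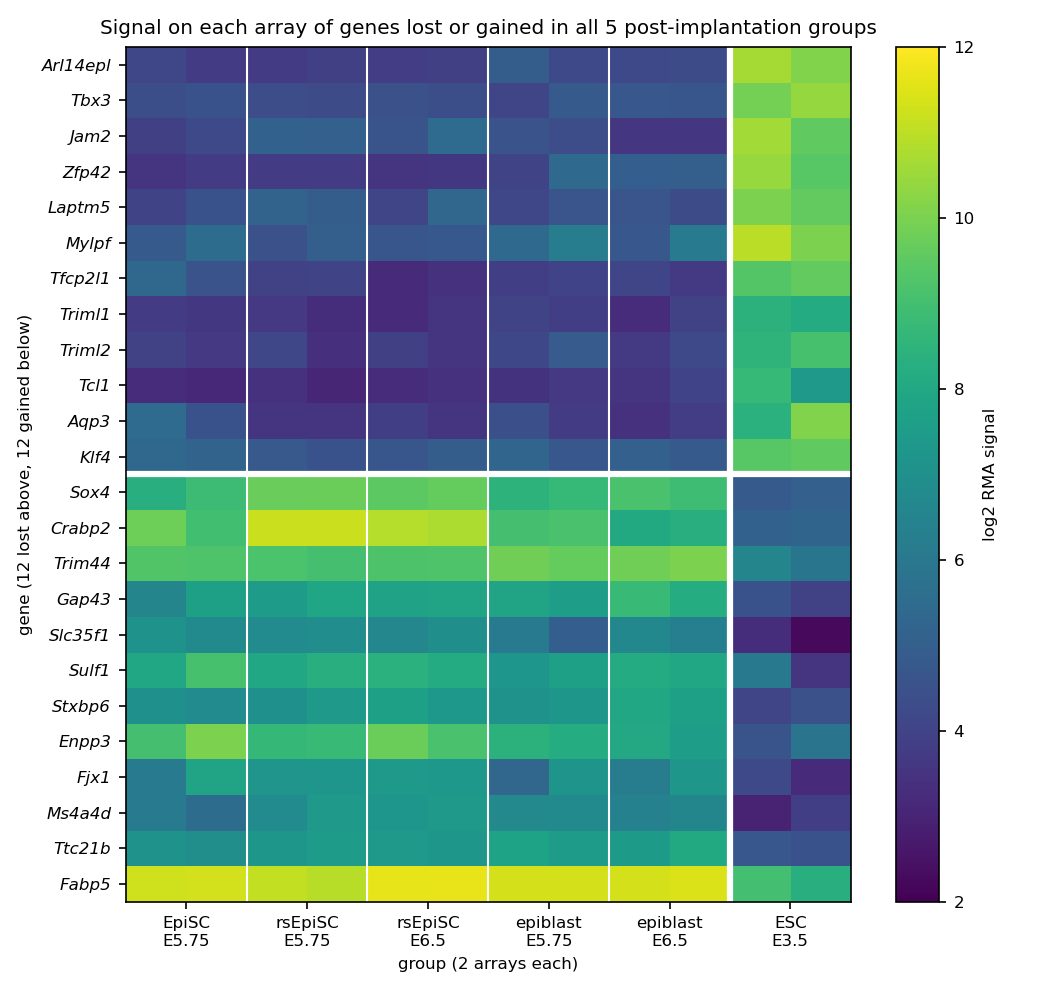
Log2 RMA signal (colour) on each of the 12 arrays (columns, by group) of the 12 named genes lost furthest (upper rows) and the 12 gained furthest (lower rows) in all 5 post-implantation groups. The columns of the 5 post-implantation groups look alike and the ESC columns at the right stand apart, as the rule requires; Crabp2 is brightest on the rsEpiSC arrays (10.79 to 11.22).

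Of 20 measured genes of the naive pluripotency list, 19 fell and 0 rose (median -3.43), and 17 were lost in all 5 groups. The list was drawn up with results of these data known, so its count is no independent evidence of direction. Among those lost were Jam2, a junctional adhesion molecule (3.58 to 5.50 after implantation, against 10.61 and 9.55 in ESC; -5.63 ± 0.28), Fbxo15, an F-box gene used as a reporter of naive cells (-4.88 ± 0.24), and Fgf4, the growth factor that ESC secrete (4.62 to 7.24 after implantation, against 9.25 and 9.37 in ESC; -3.69 ± 0.27). The member that did not pass was Gbx2, a homeobox gene (-0.08 ± 0.20). Dppa3 and Nr5a2 fell but were not among the genes lost in all 5 groups. Dppa3 (Stella), which guards the maternal genome against demethylation, had 2.51 to 3.42 on the cultured post-implantation arrays and 6.02, 7.27, 5.76 and 5.29 on the tissue arrays, against 6.97 and 6.78 in ESC, so that tissue overlapped ESC.

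Core pluripotency factors differed between the later groups. Of 12 measured genes of that list 7 fell and 1 rose (median -1.53), and Pou5f1, Nanog and Zfp296 were lost in all 5 groups. Pou5f1, which codes for Oct4, had 5.71 and 5.96 in EpiSC, 4.87 and 3.86 in E5.75 rsEpiSC, 5.23 and 4.84 in E6.5 rsEpiSC, 5.54 and 5.91 in E5.75 epiblast and 5.83 and 5.75 in E6.5 epiblast, against 6.95 and 7.11 in ESC (-1.68 ± 0.26, adjusted p = 0.000983). Its smallest difference, 1.19 in EpiSC, was near the limit of the rule. EpiSC tested alone against ESC did not pass for Pou5f1 (adjusted p = 0.0547 in limma). Nanog, a homeobox factor of the naive network, had 8.80 and 8.77 in EpiSC, 5.08 and 5.55 in E5.75 rsEpiSC, 6.44 and 6.32 in E6.5 rsEpiSC, 6.89 and 7.69 in E5.75 epiblast and 8.81 and 8.53 in E6.5 epiblast, against 11.51 and 10.54 in ESC (-3.73 ± 0.27, adjusted p = 4.29e-06). The EpiSC and E6.5 epiblast arrays were the highest of the later arrays for Nanog, and the E5.75 rsEpiSC arrays were the lowest. Sox2, the partner of Oct4, fell (-1.37 ± 0.18), but its EpiSC arrays (6.89 and 6.82) lay apart from the other 8 later arrays (9.48 to 10.37), against 10.70 and 10.51 in ESC. Tdgf1, the Nodal co-receptor Cripto, had 2.98 to 4.24 on the rsEpiSC arrays and 10.24 and 11.52 in EpiSC, against 11.51 and 10.91 in ESC, and so was not lost in every group. Zfp281 (-0.23 ± 0.20) and Sall4 (-0.20 ± 0.21) did not pass.

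**Figure D2:**
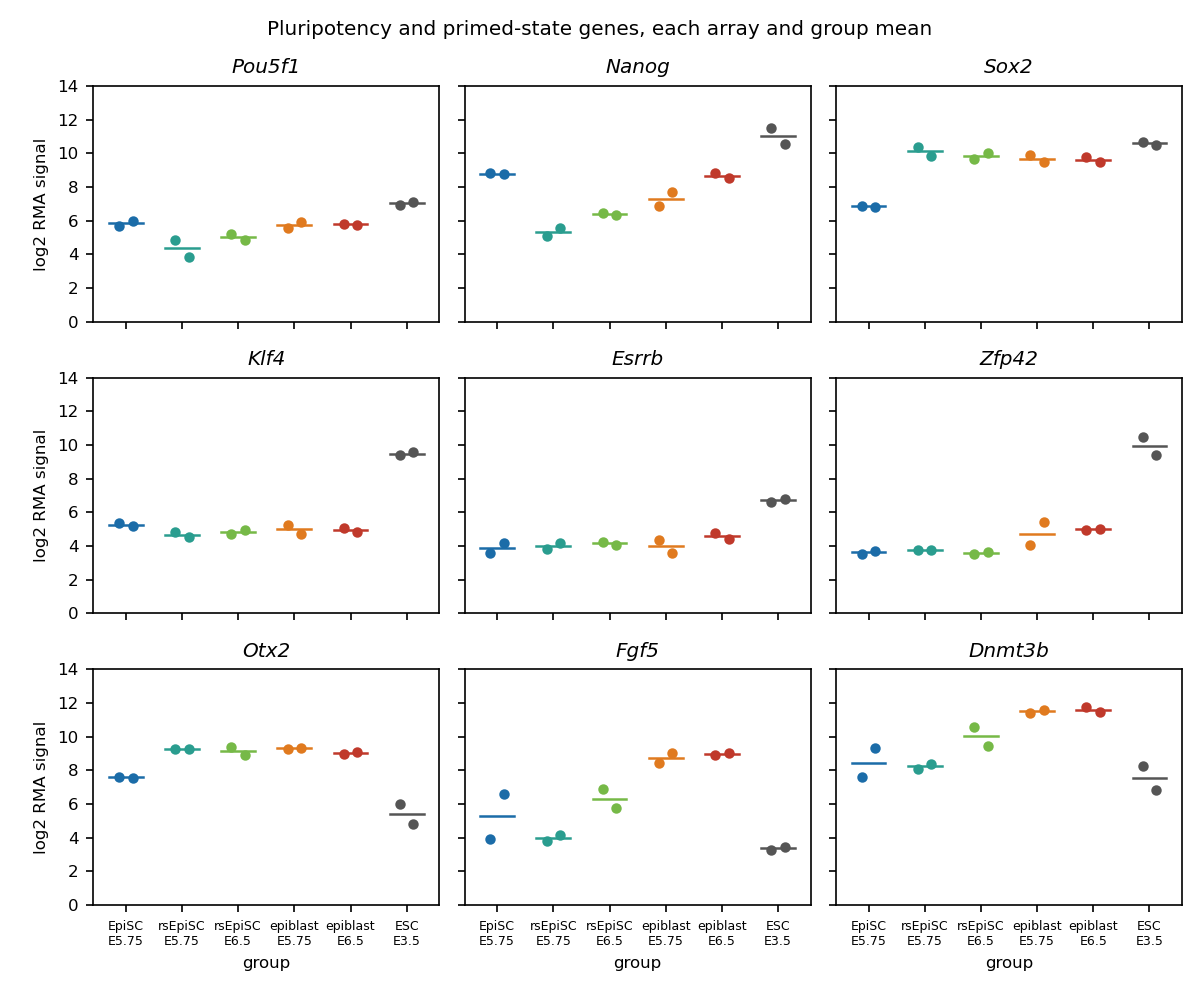
Log2 RMA signal of 9 pluripotency and primed-state genes in each group (points, arrays; lines, means of 2 arrays). Klf4, Esrrb and Zfp42 are low in each of the 5 later groups, Nanog and Sox2 vary between them, and Otx2 is above ESC in each, whereas the Fgf5 arrays of E5.75 rsEpiSC (3.78 and 4.17) lie near ESC (3.27 and 3.44).

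Zfp42 (Rex1), a zinc finger gene and standard marker of naive cells, fell together with the genes next to it on chromosome 8, Triml1 and Triml2, members of the tripartite motif family. Zfp42 had 3.5 and 3.73 in EpiSC, 3.76 and 3.74 in E5.75 rsEpiSC, 3.5 and 3.64 in E6.5 rsEpiSC, 4.04 and 5.40 in E5.75 epiblast and 4.98 and 5.02 in E6.5 epiblast, against 10.47 and 9.39 in ESC (-5.80 ± 0.33, adjusted p = 4.99e-07). Triml1 lay between 3.21 and 4.05 on the later arrays, against 8.42 and 8.16 in ESC (-4.67 ± 0.22), and Triml2 between 3.37 and 4.86, against 8.51 and 9.11 in ESC (-4.87 ± 0.28). The next measured genes on either side did not pass: Zfp353-ps was at 0.22 ± 0.31 (adjusted p = 0.721) and Adam26b at 0.02 ± 0.23 (adjusted p = 0.965). Zfp353-ps had means of 2.14 to 3.04 in the later groups and 2.44 in ESC, and Adam26b 1.48 to 2.43 and 1.875. Both were thus below the table median, 4.21, in ESC already, where a loss could hardly show, so they do not mark where the loss ends. Fat1, a cadherin gene further along with mean log2 signals of 8.03 to 9.00 in the later groups and 8.24 in ESC, was at 0.36 ± 0.24 (adjusted p = 0.405).

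The RefSeq promoters of the 3 genes (build GRCm38.p6, 250 bases before to 50 after the start of the gene, 5′ to 3′ on the strand of the gene) are shown because the genes fell together. Capitals mark matches, on either strand, to CACGTG (an E-box), AAGGTCA (a nuclear receptor motif), TTTGCAT (an octamer core) or GGGTGTG (a KLF box). Positions are counted from the start of the gene.
Triml1, chr8:43141437-43141736, minus strand: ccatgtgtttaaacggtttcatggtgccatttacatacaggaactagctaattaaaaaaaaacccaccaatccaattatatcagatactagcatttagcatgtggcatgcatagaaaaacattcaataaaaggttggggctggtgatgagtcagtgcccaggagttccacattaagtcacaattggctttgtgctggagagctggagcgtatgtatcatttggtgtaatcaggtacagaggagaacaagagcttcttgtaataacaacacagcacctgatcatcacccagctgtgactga
Triml2, chr8:43180286-43180585, plus strand: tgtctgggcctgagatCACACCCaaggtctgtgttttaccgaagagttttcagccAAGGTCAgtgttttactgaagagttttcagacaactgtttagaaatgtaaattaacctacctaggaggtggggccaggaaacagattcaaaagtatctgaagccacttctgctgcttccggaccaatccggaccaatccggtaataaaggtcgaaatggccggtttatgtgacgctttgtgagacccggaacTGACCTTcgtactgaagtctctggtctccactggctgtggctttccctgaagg
Zfp42, chr8:43306960-43307259, minus strand: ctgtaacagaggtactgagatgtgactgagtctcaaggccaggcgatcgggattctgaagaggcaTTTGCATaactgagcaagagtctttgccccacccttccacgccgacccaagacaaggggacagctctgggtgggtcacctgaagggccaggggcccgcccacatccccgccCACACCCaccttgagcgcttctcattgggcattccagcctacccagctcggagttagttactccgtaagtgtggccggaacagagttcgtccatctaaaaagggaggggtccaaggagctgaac
The Zfp42 window holds an octamer core and a KLF box, the Triml2 window a KLF box and a pair of receptor motifs, and the Triml1 window 0 matches. Of 16291 autosomal promoters of the same length, 8.13% hold the E-box, 4.0% the receptor motif, 4.25% the octamer core and 8.14% the KLF box. A match is a run of letters, not a site of binding.

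**Figure D3:**
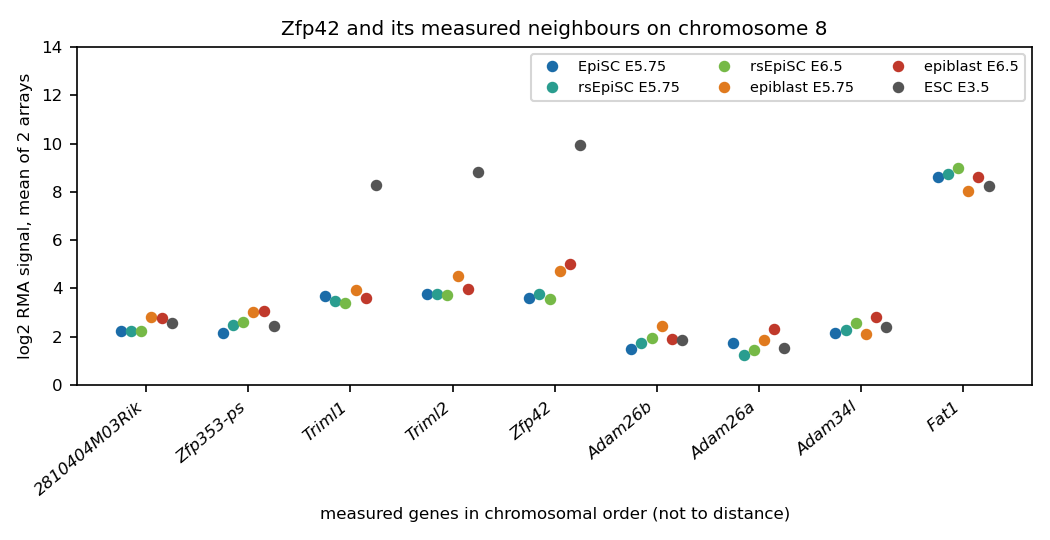
Mean log2 RMA signal of 2 arrays in each group (colours) for Zfp42 and the measured genes around it, in chromosomal order and not to distance. ESC (grey) lies above the 5 later groups for Triml1, Triml2 and Zfp42 only among these 9 genes. The others, except Fat1, lie below the median of the whole table, 4.21, in every group, ESC included.

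Other lost genes also stood next to each other. Lost genes formed 18 runs of neighbours among the measured genes, the run of Zfp42 included. These runs held 39 of the 345 lost genes and were at most 3 genes long. The 148 gained genes formed 2 runs of 2. The larger set can form more runs by its size alone, and how many would arise by chance was not tested. Of the genes of runs named below, the naming rule gave Trim44 and Fjx1, and the others were named after their values were seen. On chromosome 9 lay Cd3g, Cd3d and Cd3e, which code for chains of the T cell receptor complex. Cd3d had 3.52 to 4.77 after implantation, against 7.70 and 6.44 in ESC (-3.10 ± 0.28), and Cd3e fell by 2.11 ± 0.24. Cd3g fell by 2.20 ± 0.37, with 2.02 to 3.21 after implantation, against 5.65 and 3.62 in ESC. The lower ESC array of Cd3g thus lay near the later arrays. Also on chromosome 9 were Dppa5a, a marker of naive cells (-3.13 ± 0.41), and Ooep, a gene of the oocyte and early embryo (4.79 to 6.78 after implantation, against 9.96 and 9.19 in ESC; -4.0 ± 0.23). The apolipoprotein genes Apoc1 (-3.55 ± 0.40) and Apoc2 (-2.96 ± 0.29) were neighbours on chromosome 7. Trim44 and Fjx1 were neighbours among the gained genes.

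The largest loss of any gene in all 5 groups was that of 2210409E12Rik, annotated as a transcribed pseudogene, whose symbol the naming rule left out. It had 1.75 to 3.40 after implantation, against 9.72 and 10.95 in ESC (-7.97 ± 0.36). Next came Arl14epl, with 3.73 to 4.95 on the later arrays, against 10.64 and 10.10 in ESC (-6.29 ± 0.23). Further genes lost by a smallest difference over 4 included Laptm5, a lysosomal membrane gene known from blood cells (-5.22 ± 0.29), Mylpf, a myosin light chain of skeletal muscle (-5.33 ± 0.37), Aqp3, a water and glycerol channel (-5.25 ± 0.38), and Tcl1, a cofactor of AKT kinases (-4.60 ± 0.28). For Aqp3 the ESC arrays were 8.39 and 10.10, a gap wider than 1 log2 unit, as was the gap between them in 90 of the 345 lost genes and 39 of the 148 gained genes.

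Of 17 measured genes of the LIF receptor and STAT3 pathway 8 fell and 1 rose, Ptpn11, a phosphatase (median -0.99). The receptor Lifr fell (-1.34 ± 0.23), though E6.5 epiblast (7.02 and 7.55) overlapped ESC (7.23 and 7.58), and so did the transcription factor Stat3 (3.95 to 6.37 after implantation, against 7.26 and 6.86 in ESC; -1.90 ± 0.24). Osmr (-0.02 ± 0.18) and Socs2 (-0.11 ± 0.18) did not pass, and in the tissue groups alone Socs2 was higher (0.66, adjusted p = 0.0307 in limma). Of 16 members of the Activin/Nodal list 4 fell and 1 rose (median -0.25). The proprotein convertase Pcsk6, which cleaves Nodal, was lost in all 5 groups (3.75 to 4.72, against 7.31 and 5.92 in ESC; -2.22 ± 0.30), the inhibitory Smad7 fell by 1.78 ± 0.26 and the receptor Acvr1b by 1.05 ± 0.24. Smad2 (0.04 ± 0.17) and Inhbb (-0.08 ± 0.20) did not pass. Gdf3, a TGF-beta family ligand named after its values were seen, had 3.36 to 5.89 after implantation, against 8.87 and 7.48 in ESC (-3.65 ± 0.34).

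Targets of FGF/ERK signalling, which the MEK inhibitor in the ESC medium blocks, rose in 7 of 19 cases and fell in 0 (median 0.64). The inhibitor and the stage of the ESC cannot be told apart in these differences. Dusp6, a phosphatase that acts on ERK, had 9.50 and 10.00 in EpiSC, 10.52 and 10.55 in E5.75 rsEpiSC, 10.27 and 10.53 in E6.5 rsEpiSC, 11.41 and 11.06 in E5.75 epiblast and 11.34 and 11.24 in E6.5 epiblast, against 9.09 and 6.35 in ESC (2.92 ± 0.46, adjusted p = 0.00122). Its ESC arrays lay further apart than all 10 later arrays. Spred1, an inhibitor of the pathway, was higher in each later group (7.13 to 8.29, against 5.56 and 4.80 in ESC; 2.58 ± 0.26). Egr1, an immediate early gene, rose (1.77 ± 0.36), with 5.32 to 7.55 on the cultured arrays and 4.06 to 4.98 on the tissue arrays, against 4.24 and 3.56 in ESC. Myc rose by 1.99 ± 0.44. Spred2 (0.09 ± 0.37) and Dusp5 (0.11 ± 0.26) did not pass. Of 18 Wnt/beta-catenin targets 3 rose and 2 fell (median 0.28), and 0 were lost or gained in all 5 groups. Lef1, a transcription factor of the pathway, rose (2.30 ± 0.21) although EpiSC (4.66 and 5.12) lay with ESC (4.96 and 4.79), and Apcdd1 fell by 1.68 ± 0.47. Ccnd1 passed (1.65 ± 0.44) with 2.26, 2.23 and 2.25 in the cultured groups and 0.70 and 0.81 in tissue, where it did not pass and its arrays overlapped those of ESC. Dkk1 (-0.08 ± 0.20) and Lgr5 (0.12 ± 0.19) did not pass.

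Genes of the primed state and the post-implantation epiblast rose in 12 of 17 cases and fell in 0 (median 1.89), and Otx2, Pou3f1, Cdh2 and Sfrp2 were gained in all 5 groups. Otx2, a homeobox factor of the exit from naive pluripotency, had 7.62 and 7.56 in EpiSC, 9.29 and 9.29 in E5.75 rsEpiSC, 9.41 and 8.93 in E6.5 rsEpiSC, 9.28 and 9.35 in E5.75 epiblast and 8.99 and 9.07 in E6.5 epiblast, against 6.00 and 4.84 in ESC (3.46 ± 0.25, adjusted p = 4.33e-06). EpiSC were the lowest of the later groups. Pou3f1 (Oct6) rose by 1.89 ± 0.23 and the secreted Wnt modulator Sfrp2 by 1.92 ± 0.22. Cdh2, which codes for N-cadherin, rose (3.98 ± 0.47), but its EpiSC arrays (4.87 and 6.16) lay near the higher ESC array (4.85 and 2.55 in ESC). Fgf5, the usual marker of the primed epiblast, and the methyltransferase gene Dnmt3b passed but did not meet the rule. Fgf5 rose by 3.29 ± 0.51 (adjusted p = 0.00103), with 3.94 and 6.62 in EpiSC, 3.78 and 4.17 in E5.75 rsEpiSC, 6.88 and 5.75 in E6.5 rsEpiSC, 8.45 and 9.00 in E5.75 epiblast and 8.90 and 9.03 in E6.5 epiblast, against 3.27 and 3.44 in ESC. Cldn3 (-0.05 ± 0.27) and Krt18 (-0.41 ± 0.22) did not pass, but both means join groups on either side of ESC. Krt18 was at 2.06 in EpiSC and at -1.14, -0.97, -1.02 and -0.99 in the other 4 later groups, and Cldn3 at 2.16 in EpiSC and at -0.55, -0.47, -0.58 and -0.83.

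The gained gene with the largest smallest difference was Sox4, an SRY-box factor of progenitor cells. It had 8.29 and 8.87 in EpiSC, 9.73 and 9.76 in E5.75 rsEpiSC, 9.50 and 9.63 in E6.5 rsEpiSC, 8.46 and 8.70 in E5.75 epiblast and 9.14 and 8.88 in E6.5 epiblast, against 4.84 and 5.07 in ESC (4.14 ± 0.19, adjusted p = 1.44e-07). Crabp2, a carrier of retinoic acid, had 8.08 to 11.22 after implantation, against 5.09 and 5.22 in ESC (4.58 ± 0.20), and the fatty acid carrier Fabp5 had 10.92 to 11.65, against 8.99 and 8.30 in ESC (2.70 ± 0.15). Gap43, a growth cone protein of neurons (3.5 ± 0.28), the heparan sulfatase Sulf1 (3.33 ± 0.48), the ectonucleotidase Enpp3 (3.54 ± 0.33) and the intraflagellar transport gene Ttc21b (2.82 ± 0.21) also rose. So did Trim44 (3.23 ± 0.18), Slc35f1 (3.75 ± 0.32), Stxbp6 (3.06 ± 0.21), Fjx1 (3.19 ± 0.49) and Ms4a4d (3.27 ± 0.26). Lin28b, which blocks the maturation of let-7 miRNAs (6.19 to 7.54 after implantation, against 4.58 and 4.91 in ESC; 2.20 ± 0.22), and Hmga2, a chromatin protein that let-7 represses (7.82 to 9.30, against 7.07 and 6.67 in ESC; 1.77 ± 0.28), were gained too and were named after their values were seen.

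Of 27 measured genes of germline and meiosis 12 fell and 1 rose (median -0.79), and Dazl and Dmc1 were lost in all 5 groups. Dazl, an RNA binding protein of germ cells, had 2.29 to 2.93 on the cultured post-implantation arrays and 4.18, 3.91, 2.94 and 3.67 on the tissue arrays, against 5.06 and 6.15 in ESC (-2.64 ± 0.26). Dmc1, the meiotic recombinase, fell by 1.98 ± 0.38. Hormad1, a meiotic axis gene (-3.55 ± 0.57), Mael, a gene of the piRNA pathway (-2.83 ± 0.31), and Rpl10l, a ribosomal protein gene of the testis (-3.36 ± 0.34), fell without meeting the rule. Rpl10l had 8.94, 8.15, 6.56 and 6.48 on the tissue arrays, against 8.17 and 7.21 in ESC, so that it was low in culture (1.53 to 3.16) and overlapped ESC in tissue. Smc1b (0.02 ± 0.17) and Tdrd9 (-0.04 ± 0.19) did not pass. Of 12 primordial germ cell genes 6 fell and 0 rose (median -1.17). Tcl1, Prdm14, a regulator of germ cell fate and naive pluripotency (3.66 to 5.09, against 7.29 and 6.31 in ESC; -2.71 ± 0.33), and Klf2 (4.77 to 5.84, against 7.80 and 7.61 in ESC; -2.38 ± 0.20) were lost in all 5 groups. Nanos3 (-0.28 ± 0.25) and Nanos2 (0.33 ± 0.23) did not pass.

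Genes of DNA methylation moved both ways. Of 12 measured genes 4 rose and 3 fell (median 0.05). Dnmt3l, the catalytically inactive partner of the de novo methyltransferases, had 4.09 and 3.38 in EpiSC, 3.38 and 3.49 in E5.75 rsEpiSC, 3.58 and 4.26 in E6.5 rsEpiSC, 5.22 and 4.69 in E5.75 epiblast and 5.24 and 4.43 in E6.5 epiblast, against 9.03 and 7.47 in ESC (-4.08 ± 0.37, adjusted p = 1.99e-05). Tet2, which oxidises methylcytosine, had 5.01 and 4.70 in EpiSC, 4.23 and 4.21 in E5.75 rsEpiSC, 4.14 and 4.75 in E6.5 rsEpiSC, 3.08 and 3.41 in E5.75 epiblast and 3.85 and 3.03 in E6.5 epiblast, against 8.54 and 7.58 in ESC (-4.02 ± 0.28, adjusted p = 3.56e-06). Both were lost in all 5 groups, and Tet1 fell by 1.21 ± 0.23. Dnmt3b, which methylates DNA de novo, rose (2.42 ± 0.43), with 11.43 to 11.75 on the tissue arrays and 7.58 to 10.60 on the cultured arrays, against 8.26 and 6.81 in ESC. Dnmt1 (0.01 ± 0.15) and Mbd3 (0.03 ± 0.34) did not pass. Of 26 imprinted genes 7 rose and 5 fell (median 0.01). Plagl1, a zinc finger gene, was lost in all 5 groups (-2.14 ± 0.27), Peg3 rose by 2.17 ± 0.31, and Dio3 (0.00 ± 0.28) and Dlk1 (0.02 ± 0.21) did not pass. Nnat passed (1.98 ± 0.51) with groups on either side of ESC: it was at -0.57 in EpiSC and -1.27 in E5.75 rsEpiSC, and at 3.41 in E6.5 rsEpiSC, 4.28 in E5.75 epiblast and 4.07 in E6.5 epiblast. Its other probe set was at 0.01 ± 0.41.

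Of 18 genes of the 2-cell stage and zygotic activation 0 rose and Ddit4l alone fell (-0.68 ± 0.20, adjusted p = 0.0489). That is 5.56% of the list, near the 6.85% of all autosomal genes that were lower. Usp17le was at -0.01 ± 0.20 and Tcstv1 at 0.03 ± 0.19. Tcstv1 lay below the table median, 4.21, on every array, ESC included, where a fall could hardly show. Of 21 genes of adhesion and intermediate filaments 3 rose and 5 fell (median -0.41). Pecam1, an adhesion receptor known from endothelium and naive cells, was lost in all 5 groups (3.92 to 4.76, against 7.93 and 8.43 in ESC; -3.85 ± 0.21), and the tight junction gene Cldn4 fell by 3.34 ± 0.30 although EpiSC (9.23 and 8.36) overlapped ESC (9.02 and 9.12). Snai2 (0.04 ± 0.29) did not pass. The matrix genes Lama1 (-3.32 ± 0.21) and Fn1 (-3.22 ± 0.24), named after their values were seen, were lost in all 5 groups.

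Of 18 glycolysis genes 2 rose and 4 fell (median 0.10). The phosphofructokinase Pfkp was lost in all 5 groups (4.61 to 5.97, against 8.37 and 8.18 in ESC; -2.72 ± 0.20), and Ldhb fell by 1.22 ± 0.32. The glucose transporter Slc2a3 passed (-1.75 ± 0.26), with -0.43, -0.70 and -0.82 in the cultured groups, where it did not pass, and -3.62 and -3.16 in tissue. Pfkm (-1.27 ± 0.32) had -0.07, -0.84 and -0.70 in culture, where it did not pass, and -2.0 and -2.73 in tissue. Aldoc (0.06 ± 0.27) and Pkm (0.14 ± 0.24) did not pass. Of 27 genes of oxidative phosphorylation 6 fell and 0 rose (median -0.27), with 0 lost in all 5 groups. The differences were those of tissue more than of culture for the 4 largest: Uqcrc1 (-0.97 ± 0.15), Cox6a1 (-0.91 ± 0.14), Cox4i1 (-0.90 ± 0.24) and Atp5b (-0.74 ± 0.20). Uqcrc1 was at -0.27 in the cultured groups alone and -2.02 in tissue alone, and Atp5b at -0.18 and -1.57, and neither passed in culture alone. Cox6a1 passed in both and had -0.30 in EpiSC, -0.65 in E5.75 rsEpiSC, -0.71 in E6.5 rsEpiSC, -1.52 in E5.75 epiblast and -1.36 in E6.5 epiblast. Cox4i1 had 11.38 to 11.64 on the cultured post-implantation arrays and 8.36 to 9.58 on the tissue arrays, against 11.29 and 11.43 in ESC, and in the cultured groups alone its difference was 0.11. Tissue arrays had an interquartile range of signal of 2.23 to 2.68, against 3.07 to 3.31 for cultured arrays, ESC included, and whether this bears on the differences was not tested. Atp5c1 (-0.00 ± 0.25) and Ndufb3 (-0.04 ± 0.17) did not pass.

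**Figure D4:**
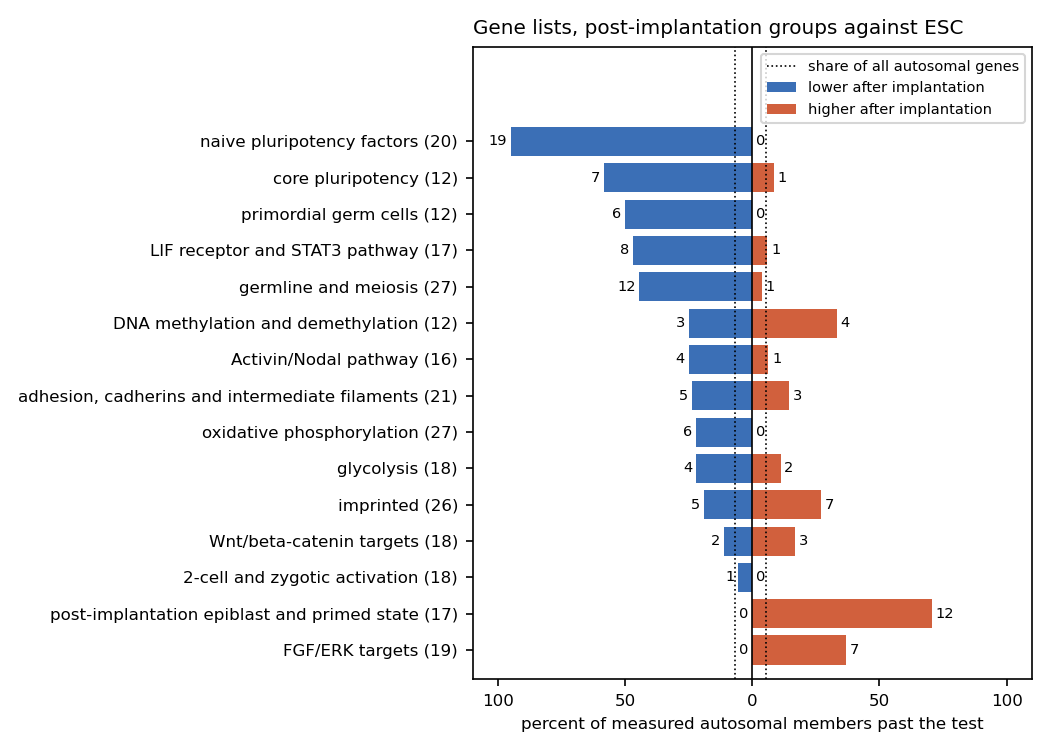
Percent of the measured autosomal genes of each list (number in brackets) that passed the test, lower (left) or higher (right) after implantation, with their counts; dotted lines mark the shares of all autosomal genes, 6.85% lower and 5.47% higher. The naive list has 19 of 20 lower, and the primed list 12 of 17 higher.

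Markers of other cells moved with some of these groups. Of 16 fibroblast markers, which the feeder cells could add, 6 rose (37.5%, against 5.47% of all autosomal genes) and 0 fell (median 0.22). Their summed linear signal was 1987 to 2599 in EpiSC, 1240 to 1556 in E5.75 rsEpiSC, 721.5 to 787.7 in E6.5 rsEpiSC, 488.9 to 560.5 in E5.75 epiblast and 405.8 to 414.4 in E6.5 epiblast, against 433.3 to 461.4 in ESC. Cnn1, a smooth muscle gene, rose by 2.36 ± 0.38. Tagln passed (1.52 ± 0.26) with 4.37 in EpiSC, 2.52 in E5.75 rsEpiSC and 0.62 in E6.5 rsEpiSC, and 0.50 and -0.40 in E5.75 and E6.5 epiblast. Dcn (1.22 ± 0.23) ran the other way, with 0.80, 0.37 and 0.19 in the cultured groups and 2.51 and 2.21 in tissue, which had no feeder layer. Col1a1 (0.04 ± 0.28) and S100a4 (0.04 ± 0.31) did not pass. Col1a2, a collagen of fibroblasts, was among the genes gained in all 5 groups (2.58 ± 0.49), but its other probe set was at 0.43 ± 0.28 (adjusted p = 0.466). The part of feeder cells in the gained genes was not tested. In bulk samples, fewer cells of a type and less RNA per cell cannot be told apart.

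Of 15 visceral endoderm markers 1 rose, Dab2 (1.42 ± 0.30), and 2 fell, Apoe (-1.03 ± 0.21) and Amn (-0.88 ± 0.21; median of the list -0.03). Sox17 (0.00 ± 0.23) and Foxa2 (-0.03 ± 0.29) did not pass. In each group, ESC included, 10 to 12 of these 15 markers had a mean under 5, and 11 to 15 of the 17 streak markers below. At such low signal a fall could hardly show. Genes under 5 on every array that did not pass, such as Ptprc, Dkk1, Lgr5 and Dlk1, cannot be read as expressed and steady. Of all autosomal genes 5.47% were higher and 6.85% lower. In marker lists this short, counts of 1 to 3 members describe the list and no more. The summed linear signal of the list was 394.3 to 475.2 in EpiSC, 354.5 to 373.2 in rsEpiSC, 723.6 to 862.4 in E5.75 epiblast and 555.3 to 557.6 in E6.5 epiblast, against 442.8 to 461.0 in ESC. Of 11 markers of extraembryonic ectoderm and trophoblast 1 rose and 1 fell, Tfap2c (-1.21 ± 0.19; median -0.26), and Krt7 (-0.08 ± 0.29) and Sox21 (-0.12 ± 0.28) did not pass. Their summed signal was 811.7 to 812.6 in E6.5 epiblast and 351.6 to 500.0 in the other later groups, against 379.9 to 653.1 in ESC. Whether such cells bear on the tissue values was not tested. Of 17 markers of primitive streak and mesoderm 1 rose and 3 fell (median 0.17): Eomes, which is in both of these lists, rose by 0.94 ± 0.20, with 7.14 to 8.97 in tissue and 4.25 to 5.43 in cultured post-implantation cells, against 5.19 and 5.32 in ESC. Snai1 fell by 1.41 ± 0.27, Mesp2 by 1.15 ± 0.30 and Cdx1 by 0.81 ± 0.22, and Hoxb1 (-0.00 ± 0.20) and Msgn1 (0.03 ± 0.20) did not pass. The summed streak signal was 999.9 to 1127 in E6.5 epiblast and 503.7 to 528.4 in E5.75 epiblast, against 453.2 to 486.5 in ESC. The cultured groups lay below ESC, with 343.9 to 379.3 in EpiSC, 343.3 to 360.9 in E5.75 rsEpiSC and 357.4 to 383.6 in E6.5 rsEpiSC. Of 16 markers of anterior and neural ectoderm 2 rose, Fezf2 (2.07 ± 0.27) and Lhx5 (1.33 ± 0.31; median 0.56), and Pax3 (-0.01 ± 0.19) and Lhx2 (0.06 ± 0.25) did not pass. Their summed signal was 1640 to 1939 in E5.75 rsEpiSC and 1433 to 1987 in E6.5 rsEpiSC, against 340.9 to 482.3 in ESC. It lay near ESC in EpiSC (386.7 to 484.6), E5.75 epiblast (393.6 to 460.8) and E6.5 epiblast (415.5 to 436.9). Fezf2 was at 0.215 in EpiSC, 4.80 and 2.67 in E5.75 and E6.5 rsEpiSC, and 1.54 and 1.14 in E5.75 and E6.5 epiblast. Lhx5 was at -0.233, 3.12, 2.87, 0.445 and 0.428 in the same order. Of 3 blood markers Cd68 fell (-3.43 ± 0.48), with EpiSC at 10.36 and 8.43, against 8.91 and 9.90 in ESC, and Ptprc (0.09 ± 0.19) and Lyz2 (0.43 ± 0.22) did not pass.

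Within the lost and gained genes, culture was set against tissue, as the mean of the 3 cultured post-implantation groups minus the mean of the 2 tissue groups, a difference the rule did not use. Over all autosomal genes 40.5% passed this test, 18.3% higher and 22.2% lower in culture. Among the lost genes 121 of 345 passed (35.1%), 55 higher and 66 lower in culture, and among the gained genes 58 of 148 (39.2%), 33 higher and 25 lower, shares near that of all genes. The zinc finger gene Zfp992 was the furthest below tissue, with 3.16 to 5.03 in culture, against 9.60, 7.75, 8.27 and 8.93 in tissue (-4.67, adjusted p = 5.02e-06), and with ESC at 10.47 and 10.04. Trim25, a ubiquitin ligase of antiviral sensing, had 3.48 to 4.69 in culture, against 7.70 to 7.98 in tissue (-3.90). The amino acid transporter Slc38a4, an imprinted gene (-3.64), Zfp936 (-3.16) and Rps4l, annotated as a transcribed pseudogene (-2.81), were also lower in culture. Plpp3, a lipid phosphatase, was the furthest above tissue, with 6.36 to 6.95 in culture, against 4.30 to 4.92 in tissue (2.21, adjusted p = 1.53e-05). Cmtm6, a regulator of PD-L1 (2.05), Col1a2 (2.17), Prtg, an immunoglobulin family gene (1.96), and Crabp2 (1.84) were also higher in culture.

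**Figure D5:**
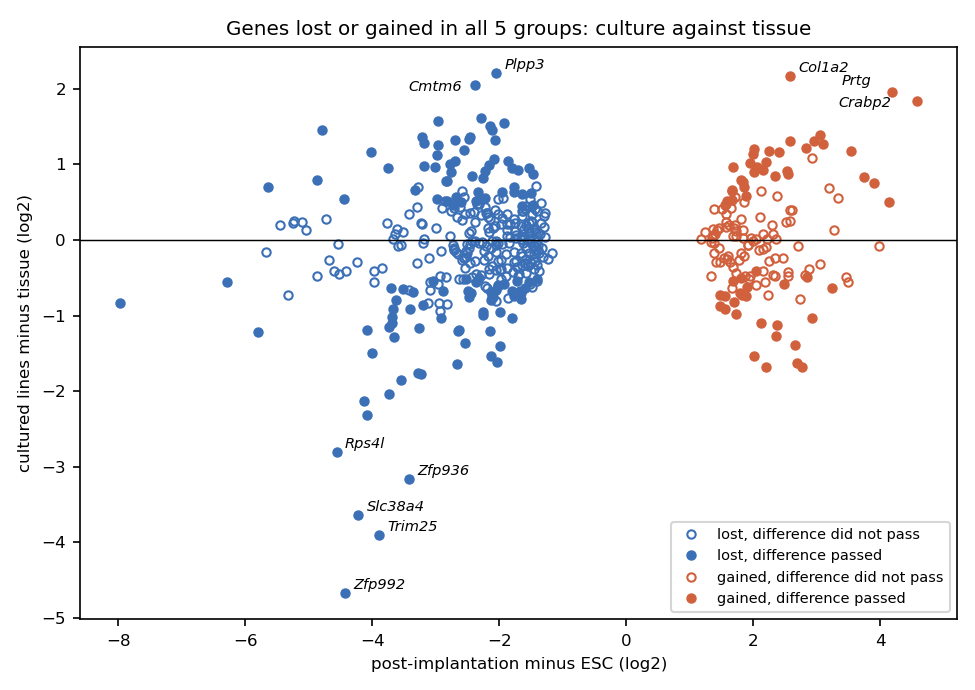
For each gene lost (blue) or gained (orange) in all 5 groups, the difference from ESC (x axis, log2) against the difference of cultured lines minus tissue (y axis, log2), with filled points where the latter passed. Zfp992, Trim25, Slc38a4, Zfp936 and Rps4l lie lowest, and the empty middle of the x axis follows from the rule.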

How the data were processed

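The authors deposited 12 arrays of log2 RMA values, 41345 probe sets each. Oligo was the tool, per the submitters' processing notes, of a version not given in the sources used. The labels' protocol names a human array, but the identifiers match a mouse probe table. Of the probe sets 23521 had 1 gene symbol, 1814 several and 16010 none; RefSeq (GRCm38.p6) held 99.18% of the identifiers and changed 0 symbols. The probe set with the highest mean stood for a gene (1031 autosomal genes had more than 1), giving 22180 genes, 21204 of them autosomal. Replicate arrays correlated at 0.943 to 0.988 across genes, with root mean square SDs of 0.24 to 0.46.

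Group means were fitted with limma 3.58.1 in R 4.3.3 (lmFit, eBayes with a variance trend), with Benjamini-Hochberg adjustment over all 22180 genes and a threshold of 0.05. The fit was tested on simulated data. The members, gene lists and tests were chosen with earlier results of these data known.

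Genes named are the 12 lost and 12 gained with the largest smallest difference (predicted, clone and small RNA symbols left out), 9 fixed genes, up to 4 passing members of each list with the largest difference and up to 2 not passing with the smallest, and the 5 highest and 5 lowest in culture minus tissue. That made 134 genes, 94 passing and 40 not; 18 more were named after their values were seen. Promoter sequences were found for 78.3% of lost and 72.3% of gained genes, too few for a comparison of motifs between sets, which is void. Replicate numbers did not pair the arrays: over 15 pairs of groups, deviations correlated at -0.26 to 0.06, none over 0.1. Alternatives tried were the replicate block, each array left out, every probe set, mean of probe sets, quantile normalization, centring, a filter on low signal, array weights, no trend, 1 pooled later group, culture or tissue alone, and other size rules.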

Additional observations from a re-analysis of the deposited data

Results flagged for a closer look

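For 38 named genes lost or gained in all 5 groups, or always named, cultured lines and tissue differed in their distance from ESC by the test of that difference (limma, adjusted p under 0.05), which 40.5% of all autosomal genes pass. The naming rule picked the 5 highest and 5 lowest lost or gained genes because they passed this same test. The count of 38 therefore cannot be set against that share. Given as culture minus tissue on the log2 scale, the lower ones in culture were Zfp992 (-4.67), Trim25 (-3.90), Fgf5 (-3.66), Slc38a4 (-3.64), Zfp936 (-3.16), Rps4l (-2.81), Dnmt3b (-2.65), Apoc1 (-1.85), Ooep (-1.49), Dmc1 (-1.40), Gdf3 (-1.28), Zfp42 (-1.22), Dnmt3l (-1.20), Dazl (-1.19), Nanog (-1.15), Fgf4 (-1.09), Dusp6 (-1.04), 2210409E12Rik (-0.84), Pou3f1 (-0.74), Sox2 (-0.72), Zfp296 and Pou5f1 (-0.68 each), Trim44 (-0.63) and Arl14epl (-0.55). The higher ones in culture were Plpp3 (2.21), Col1a2 (2.17), Cmtm6 (2.05), Prtg (1.96), Crabp2 (1.84), Fn1 (1.36), Enpp3 and Tet2 (1.17 each), Slc35f1 (0.84), Fbxo15 (0.79), Jam2 (0.70), Lama1 (0.66), Sox4 (0.50) and Pfkp (0.46).

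Outside the autosomal genes the same rule called 38 of 17824 probe sets without a single gene symbol as gained (0.213%) and 132 as lost (0.741%). Of 905 X-linked genes 18 were gained (1.99%) and 16 lost (1.77%); the sex of the lines is not labelled. Outliers within a group could not be tested with 2 arrays each.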

How the results depend on the processing

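Lost and gained counts stayed within 1.5 times of 345 and 148 under the replicate block (2460 genes passing, 345 lost and 148 gained), which changed no named call but those of Ddit4l and Apcdd1, and under both array scalings, array weights and both choices of probe set. Leaving out each array in turn gave 1463 to 3127 passing genes, 495 to 1399 higher, 968 to 1728 lower, 336 to 485 lost, 135 to 307 gained and 131 to 207 with a difference between culture and tissue (179 with all arrays). Every probe set gave 764 higher, and without low-signal genes 224 were lost. As 1 later group of 10 arrays, whose spread includes the differences between groups, 623 passed, 198 higher and 425 lower, and 43 of the 94 named genes that had passed. In cultured groups alone 538 were lost and 408 gained; in tissue alone 5475 passed, 2794 higher and 2681 lower, with 1560 lost and 809 gained under fewer groups. At 4-fold 114 were lost and 25 gained. Of the 94 named genes that passed, Cox4i1 (0.11) and Eomes (-0.32) changed sign in cultured groups alone. Of the 40 that did not pass, chosen for the smallest differences (0.24 or less where the sign changed), 36 changed sign under at least 1 alternative, and 2 of these then passed, in tissue alone: Socs2 (0.66) and Aldoc (-0.95). In tissue alone 4 more of the 40 passed with the same sign, Sall4 (-0.70), Krt18 (-1.01), Smc1b (0.73) and Tcstv1 (0.81). The genes that changed sign with centred arrays were Dnmt1 (-0.01), Dio3 (-0.02), Dlk1 (0.00) and Sox17 (-0.02). After quantile normalization they were Cldn3 (0.00), Smc1b (0.00), Usp17le (0.00), Tcstv1 (-0.11), Atp5c1 (0.07), Ndufb3 (0.00), Dio3 (-0.04), Dlk1 (-0.01), S100a4 (-0.04), Sox17 (-0.03), Krt7 (0.05) and Ptprc (-0.09). With the mean of probe sets it was Gbx2 (0.22). In cultured groups alone they were Gbx2 (0.18), Sall4 (0.13), Cldn3 (0.38), Smc1b (-0.45), Tcstv1 (-0.49), Dkk1 (0.00), Atp5c1 (0.14), Ndufb3 (0.15), Dio3 (-0.13), Sox21 (0.12), Msgn1 (-0.01), Pax3 (0.10) and Ptprc (-0.03). In tissue alone the others were Zfp281 (0.25), Tdrd9 (0.21), Dnmt1 (-0.15), Mbd3 (-0.51), Usp17le (0.52), Spred2 (-0.36), Dusp5 (-0.46), Smad2 (-0.06), Snai2 (-0.31), Pkm (-0.30), Dlk1 (-0.07), S100a4 (-0.14), Col1a1 (-0.19), Sox17 (-0.03), Foxa2 (0.10), Krt7 (0.68), Hoxb1 (0.28) and Lhx2 (-0.40). With each array left out in turn, signs changed for Cldn3 (-0.52 to 0.42), Smc1b (-0.02 to 0.07), Tdrd9 (-0.09 to 0.01), Dnmt1 (-0.10 to 0.13), Mbd3 (-0.29 to 0.34), Usp17le (-0.29 to 0.28), Tcstv1 (-0.10 to 0.16), Spred2 (-0.57 to 0.74), Dusp5 (-0.08 to 0.30), Dkk1 (-0.22 to 0.06), Lgr5 (-0.10 to 0.34), Osmr (-0.26 to 0.23), Smad2 (-0.12 to 0.19), Inhbb (-0.30 to 0.14) and Snai2 (-0.24 to 0.32). They also changed for Aldoc (-0.02 to 0.15), Pkm (-0.43 to 0.71), Atp5c1 (-0.09 to 0.08), Ndufb3 (-0.16 to 0.08), Dio3 (-0.50 to 0.50), Dlk1 (-0.04 to 0.09), S100a4 (-0.06 to 0.14), Col1a1 (-0.09 to 0.18), Sox17 (-0.08 to 0.08), Foxa2 (-0.33 to 0.26), Krt7 (-0.53 to 0.38), Hoxb1 (-0.09 to 0.08), Msgn1 (-0.03 to 0.08), Pax3 (-0.18 to 0.16) and Lhx2 (-0.09 to 0.20).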
